A study of Nicotiana benthamiana with 8 samples.

Results

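Calcium sensing and calcium-dependent signalling is represented in the deposited table by 14 of its 3305 contigs. They are the contigs whose annotation against the Viridiplantae database contained calmodulin, calcium, CBL-interacting, calcineurin, annexin or IQ-domain, after leaving out annotations that contained transporter, channel, antiporter or serine/threonine-protein kinase. By their annotation they were 1 annexin, 4 calcium sensors, 5 protein kinases, 2 IQ-domain proteins and 2 other calcium-binding proteins. In all 14 the second annotation column also held a calcium-related name. Its header calls it the best hit in Arabidopsis, but some of its entries carry names from other species, so it is called the second annotation here.

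The RNA came from leaves of 4-week-old Nicotiana benthamiana, a tobacco relative used for transient expression. One group was infiltrated with Agrobacterium tumefaciens GV3101-pMP90 carrying MdMYB68, a MYB transcription factor of apple, in the p103 vector as a GFP fusion under the CaMV 35S promoter, and the control group with the p103 empty vector. Both groups also received pBIN61-p19, which supplies the viral silencing suppressor p19, so the controls were infiltrated leaves and not untreated ones. Each group had 4 biological replicates, each a pool of 3 plants with 4 leaves per plant, collected 4 days after infiltration. The apple factor was driven by a strong viral promoter in a leaf of another species, which limits the leaves as a model of apple skin. In such bulk samples, more cells of a type and more RNA per cell cannot be told apart.

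Calcium ions act as second messengers in plant cells. A rise in cytosolic calcium is read by proteins with EF-hand motifs, such as calmodulin, calmodulin-like proteins and calcineurin B-like (CBL) proteins, which bind calcium and then act on targets. Calcium-dependent protein kinases carry the sensor and the kinase in one protein, whereas CBL-interacting protein kinases (CIPKs) are switched on by a CBL partner. IQ-domain (IQD) proteins bind calmodulin, and many of them lie along microtubules. Annexins bind membrane phospholipids in a calcium-dependent manner. In leaves these proteins are known for responses to wounding, pathogens, drought and nutrients.

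The libraries held between 29371282 and 34080202 mapped reads, and the listed contigs took up 6.92 to 8.76% of them in control leaves (empty vector) and 17.5 to 18.7% in MdMYB68 leaves. The table holds contigs that had been selected on these libraries for a change of at least 4-fold and 5 RPKM (reads per kilobase of contig and 1000000 mapped reads), so a difference between the groups is a property of the list and is described here rather than offered as separate evidence. Leaf markers were present but moved with the treatment: all 33 chlorophyll a-b binding contigs and all 10 Rubisco small chain contigs had negative log2 fold changes, 32 and 10 of them called. Their summed levels went from 15890 to 23460 and from 11809 to 19440 reads per kilobase and 1000000 mapped reads with the empty vector to 3737 to 5833 and 2833 to 4674 with MdMYB68, respectively. The 8 Casparian strip membrane protein contigs, markers of the root endodermis, were all called higher, from a summed level of 0.454 to 1.35 to one of 747 to 934. Calls are those of the edgeR test described below, which called 83.4% of all listed contigs higher and 12.4% lower. The part of such marker shifts in the results below was not tested.

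Of the 14 calcium signalling contigs, 13 had more reads with MdMYB68 and 1, annotated as IQ-DOMAIN 1, was lower. The quasi-likelihood test of edgeR on total gene reads, with all mapped reads as library size, called all 14 at an adjusted p under 0.001. It also called 95.9% of all listed contigs, 83.4% higher and 12.4% lower, so the count says nothing particular about calcium signalling. The RPKM values of the groups did not overlap for any of the 14, as for 100% of the listed contigs, and the two-sided exact permutation test gave p = 0.029 for each, the smallest p that 4 libraries against 4 allow. The median log2 fold change of the 14 was 3.21, beside 3.34 over all listed contigs.

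Most of the group sat in the lower part of the listed increases. The annexin, with the rank 104 of 3305 by log2 fold change, and the contig annotated At1g02270, with the rank 853, were the only ones above a log2 fold change of 4, and 11 contigs lay between 2 and 4. The scaling matters for those 11. Factors from TMM (trimmed mean of M-values) computed on the listed contigs, which assume that most of a list of changed contigs is unchanged, moved the median of all listed contigs by -2.94, to 0.40. Under them 9 of the 14 contigs were still positive and 5 negative, beside 1912 of the 3305 listed contigs that were positive. Of the 14 contigs, 2 were called higher and 3 lower, beside 29.2% and 18.5% of all listed contigs. Over all listed contigs the share of calls that were higher went from 87.0% to 61.2%. The annexin and the primary calmodulin-like protein 3 contig kept their direction and their call, at 7.59 and 1.03, above that median of 0.40. The IQ-DOMAIN 1 contig kept them too, but a downward shift could not have reversed a negative value.

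**Figure D1:**
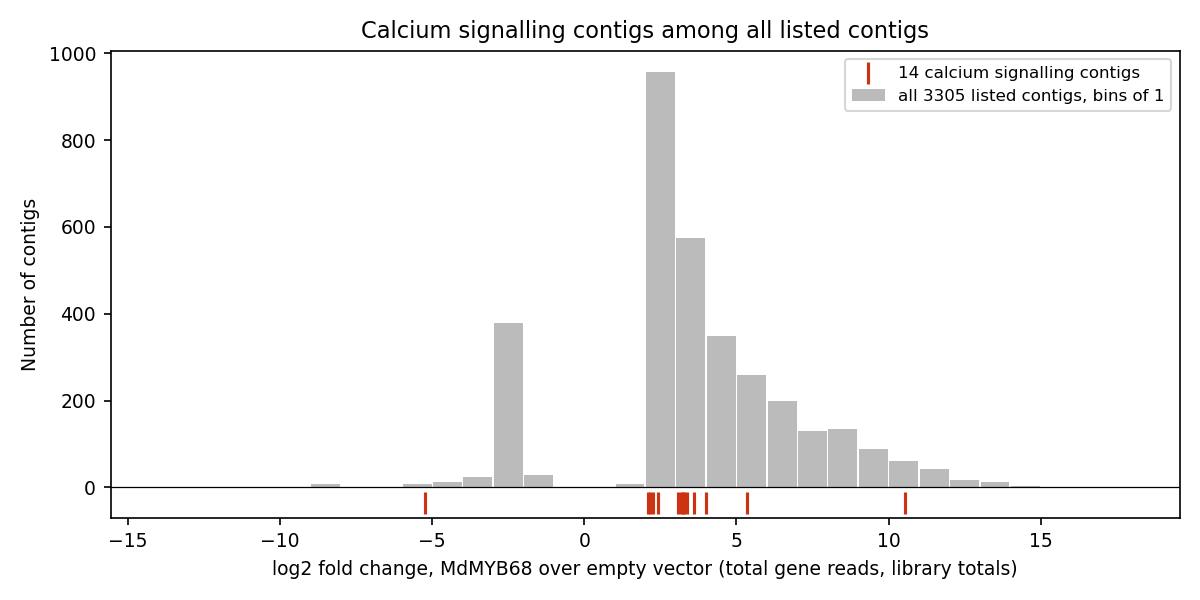
Histogram of the log2 fold change (MdMYB68 over empty vector, edgeR on total gene reads; x axis) of all 3305 listed contigs in bins of 1 (y axis: number of contigs), with a red tick below the axis for each of the 14 calcium signalling contigs. Most ticks lie between 2 and 4, with the annexin at 10.55 and IQ-DOMAIN 1 at -5.25.

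To compare levels between contigs, reads were expressed per kilobase and 1000000 of all mapped reads, since the deposited RPKM of 7 of the contigs uses the primary and that of the other 7 the much smaller alternate reference set as denominator. With the empty vector the kinases made up most of the summed level of the 14 contigs, 69.3% ± 3.04 (SD, n = 4). CIPK18 was the highest, at 6.79 ± 0.617, followed by the pair of CPK30 contigs at 6.51 ± 0.810 and 5.83 ± 1.18 (SD, n = 4), and these 3 did not differ beyond their spread. With MdMYB68 the order was another one. The annexin alone reached 867 ± 111 (SD, n = 4) and took 80.9% ± 1.28 of the summed level, against 1.88% ± 0.885 with the empty vector (SD, n = 4). Calmodulin-like protein 3 (38.0 ± 2.39) came next, then CPK30 (31.5 ± 2.86 and 31.0 ± 3.14), calcineurin subunit B (29.4 ± 1.81) and CIPK18 (29.1 ± 2.03), and the last 4 values lay within their spread of each other.

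Without the annexin, the other 13 contigs summed to 30.4 ± 1.67 with the empty vector and 204 ± 12.3 with MdMYB68 (SD, n = 4) on this scale, a 6.72-fold difference. By role, the summed level was 12.0-fold higher for the sensors, 5.46-fold higher for the kinases and 1.32-fold higher for the IQ-domain contigs, whose libraries overlapped between the groups (0.909 to 1.92 with the empty vector, 1.34 to 2.82 with MdMYB68).

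**Figure D2:**
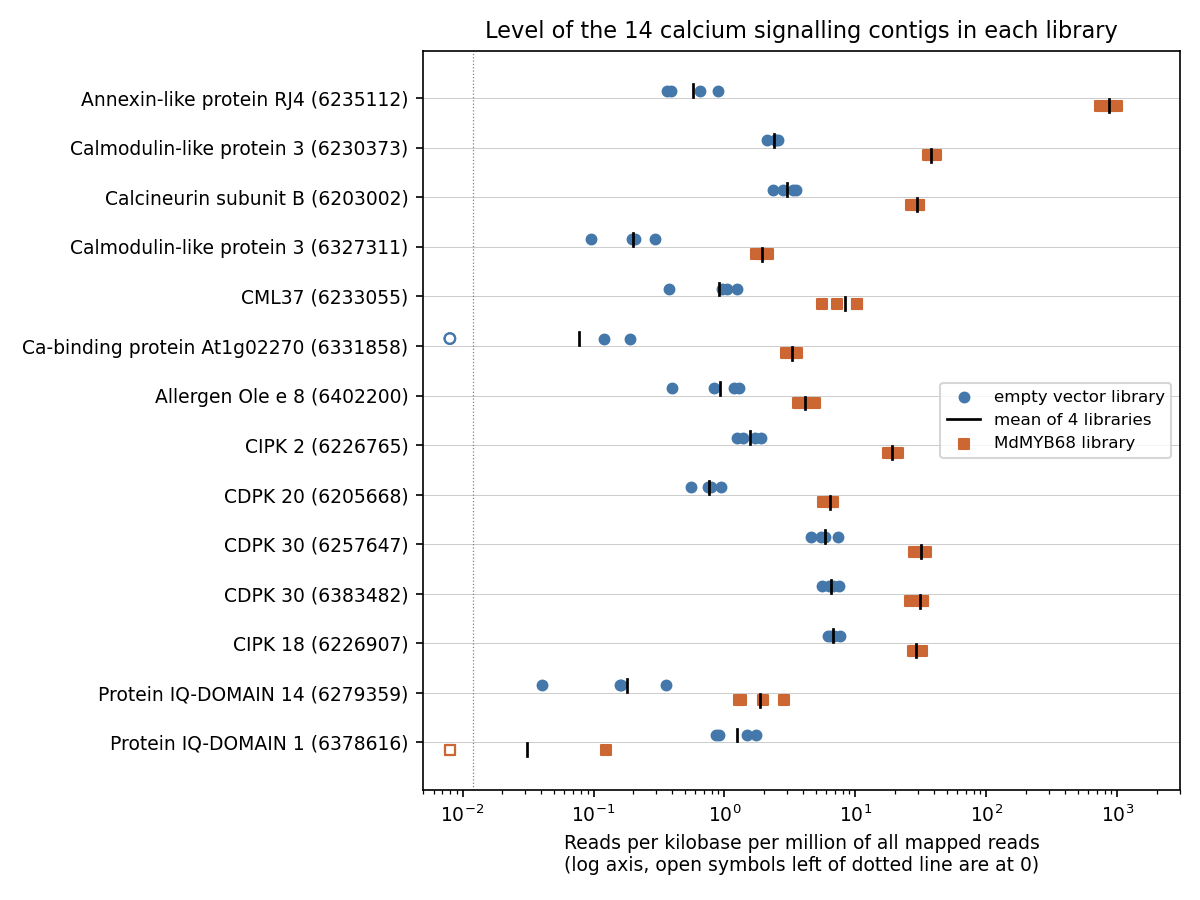
Level of each calcium signalling contig (rows, with the last 7 digits of the contig name) in each library, in reads per kilobase and 1000000 of all mapped reads on a log axis (blue circles: 4 empty vector libraries, orange squares: 4 MdMYB68 libraries, black bars: group means, open symbols left of the dotted line: libraries at 0). The annexin moves from a mean of 0.575 to 867, and IQ-DOMAIN 1 is the only contig with orange left of blue.

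The annexin contig Nbv5tr6235112, annotated as annexin-like protein RJ4 (a name first given to a strawberry annexin) with the Arabidopsis symbol ANNAT8, was 1118 bases long. Its RPKM in empty vector replicates 1 to 4 was 0.439, 1.07, 0.782 and 0.466, from 80 reads in all. In MdMYB68 replicates 1 to 4 it was 1011, 1081, 1212 and 888, from 125254 reads. The groups were far apart, with every MdMYB68 library well above every control library. Mean RPKM went from 0.690 ± 0.300 to 1048 ± 135 (SD, n = 4), which is 1518-fold (log2 fold change 10.55, SE (standard error) 0.30, edgeR adjusted p = 5.9e-10), or a log2 value of 7.59 under TMM scaling. Of its reads 99.1% were uniquely placed, meaning that they mapped to this contig only, so the increase does not rest on reads shared with other contigs. By level it ranked 1900 among all 3305 contigs in control leaves and 17 in MdMYB68 leaves.

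The sensors comprised a pair of contigs annotated as calmodulin-like protein 3, a calcineurin subunit B contig and CML37. All 4 were called higher with library totals, beside 83.4% of all listed contigs. Calmodulin-like proteins are relatives of calmodulin that carry EF-hands and have no enzyme activity of their own. The primary contig of calmodulin-like protein 3, Nbv5tr6230373, had 2.54, 2.95, 2.89 and 3.10 RPKM in control leaves and 43.5, 45.0, 50.1 and 44.9 RPKM with MdMYB68. Both groups were tight, with coefficients of variation of 8.19% and 6.33%. The increase was 16.0-fold (log2 fold change 3.98, SE 0.13, edgeR adjusted p = 1.3e-09), and 4431 of its 4432 reads were uniquely placed.

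The alternate contig with the same annotation, Nbv5tr6327311, was covered by few reads, 26 with the empty vector and 260 with MdMYB68. It had 1.17, 1.25, 0.575 and 1.77 RPKM in control leaves and 10.2, 11.0, 11.0 and 12.5 RPKM with MdMYB68, a 9.38-fold increase (log2 fold change 3.24, SE 0.30, edgeR adjusted p = 1.6e-06). Both contigs carry the Arabidopsis symbol AGD11. Elsewhere among the listed contigs this name stands in annotations of an ADP-ribosylation factor GTPase-activating protein. Whether the symbol and the calmodulin-like annotation refer to the same Arabidopsis gene was not checked.

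Calcineurin is a calcium-activated phosphatase of animals and fungi, and its subunit B is the part that binds calcium. The contig with this annotation, Nbv5tr6203002 (AT3G18430), had 3.38, 4.22, 2.79 and 3.99 RPKM in control leaves and 37.2, 35.7, 36.8 and 32.3 RPKM with MdMYB68. It was 9.87-fold higher (log2 fold change 3.29, SE 0.16, edgeR adjusted p = 1.6e-08). Only 6.63% of its reads were uniquely placed, yet the ratio of summed reads per library total was alike for the 2 kinds of read, 9.74 for uniquely placed and 9.76 for shared ones.

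CML37, known in Arabidopsis as a calmodulin-like protein of wounding and jasmonate responses, was represented by Nbv5tr6233055, whose second annotation is CML19 instead. It had 0.457, 1.15, 1.26 and 1.49 RPKM in control leaves and 6.66, 12.4, 12.5 and 8.72 RPKM with MdMYB68. Within each group replicate 1 was the lowest library. The mean was 9.23-fold higher (log2 fold change 3.19, SE 0.37, edgeR adjusted p = 1.0e-05). With TMM factors the log2 fold changes of the 4 sensors stayed positive but only the primary calmodulin-like protein 3 contig was called, at 1.03, and the others were 0.34 for calcineurin subunit B, 0.31 for the alternate contig and 0.23 for CML37.

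A pair of contigs carried other calcium-binding annotations. Nbv5tr6331858, annotated as uncharacterized calcium-binding protein At1g02270 (Arabidopsis symbol AT5G54130), has as its second annotation a calcium-binding member of the endonuclease, exonuclease and phosphatase family. It had no read in empty vector replicates 1 and 4, with 4 and 6 reads in replicates 2 and 3, whereas the MdMYB68 libraries had 104, 123, 96 and 121 reads. Mean RPKM rose 40.9-fold, from 0.466 ± 0.567 to 19.1 ± 1.74 (SD, n = 4) (log2 fold change 5.34, SE 0.61, edgeR adjusted p = 9.0e-06). Because the control level rests on 10 reads, this ratio is loose, and without empty vector replicate 3 the log2 fold change was 6.21. With TMM factors it was 2.44 and not called.

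The other, Nbv5tr6402200, is annotated as the calcium-binding allergen Ole e 8, an EF-hand protein of olive pollen, with CML27 as second annotation. It had 4.95, 7.66, 7.19 and 2.38 RPKM in control leaves and 21.2, 21.9, 28.3 and 24.9 RPKM with MdMYB68. The increase of 4.34-fold (log2 fold change 2.16, SE 0.34, edgeR adjusted p = 1.2e-04) came close to the cut-off of the list, turned to -0.79 under TMM scaling, and rested on no uniquely placed read in any library.

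All 5 kinase contigs were called higher with library totals, beside 83.4% of all listed contigs. Only CIPK2 (0.66) and CPK20 (0.12) were still positive under TMM scaling, beside 1912 of the 3305 listed contigs. The CIPK2 contig Nbv5tr6226765 had 2.30, 2.05, 1.67 and 1.50 RPKM in control leaves and 23.5, 22.4, 25.4 and 21.3 RPKM with MdMYB68, a 12.3-fold increase (log2 fold change 3.61, SE 0.16, edgeR adjusted p = 8.3e-09). For this contig the 2 kinds of read differed: the ratio was 8.39 for uniquely placed and 20.2 for shared reads. The CIPK18 contig Nbv5tr6226907 had 7.44, 8.20, 7.81 and 9.16 RPKM in control leaves and 34.4, 33.4, 38.8 and 34.1 RPKM with MdMYB68, a 4.32-fold increase (log2 fold change 2.10, SE 0.11, edgeR adjusted p = 2.4e-08), and 99.2% of its reads over both groups were uniquely placed. The CIPK numbers are not firm, since the second annotation of the CIPK2 contig is a CIPK18-like protein and that of the CIPK18 contig a CIPK2-like protein.

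Calcium-dependent protein kinases bind calcium themselves. CPK20, which in Arabidopsis acts in pollen tubes, was represented by Nbv5tr6205668, with 0.942, 0.895, 1.14 and 0.665 RPKM in control leaves and 8.09, 7.97, 8.02 and 6.83 RPKM with MdMYB68. In both groups replicate 4 was the lowest library, and the increase was 8.49-fold (log2 fold change 3.08, SE 0.20, edgeR adjusted p = 1.2e-07). As for CIPK2, shared reads differed more between the groups (14.6-fold) than uniquely placed ones (6.44-fold).

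CPK30, one of the kinases that relay nitrate signals in Arabidopsis, had a pair of contigs, both of the alternate set, between which shared reads could be split. The shorter one, Nbv5tr6257647 (535 bases), had 44.0, 27.2, 33.0 and 35.4 RPKM in control leaves and 178, 198, 192 and 164 RPKM with MdMYB68. The longer one, Nbv5tr6383482 (1864 bases), had 37.4, 33.3, 40.6 and 44.9 RPKM in control leaves and 154, 184, 190 and 192 RPKM with MdMYB68. Their increases were 5.24-fold and 4.61-fold (log2 fold changes 2.44 and 2.25, SE 0.19 and 0.13, edgeR adjusted p = 4.2e-07 and 5.2e-08), and the shares of uniquely placed reads 44.5% and 14.8%. With uniquely placed reads alone the ratios were 4.95 and 5.14. With TMM factors the log2 fold change was -0.52 for the shorter and -0.70 for the longer contig and -0.86 for CIPK18, the last 2 past the threshold as lower.

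**Figure D3:**
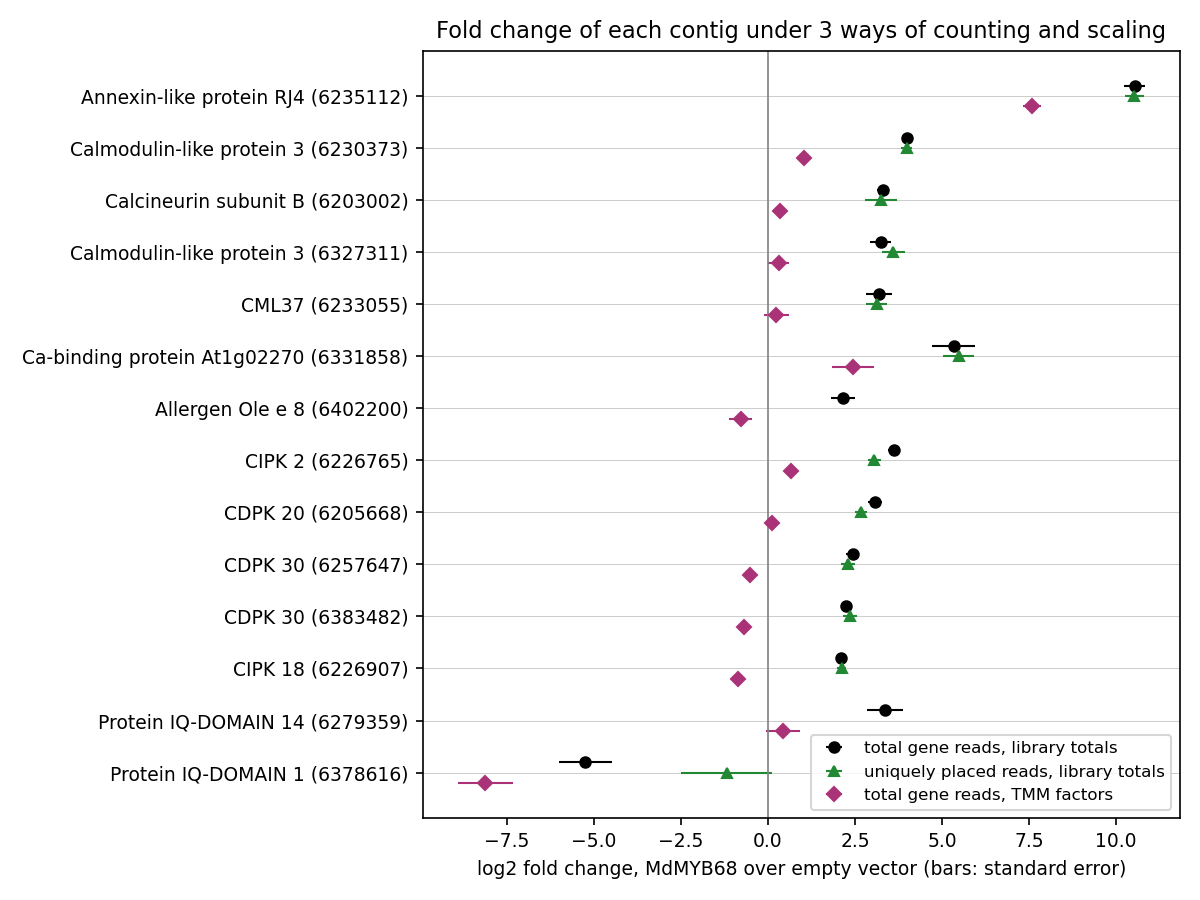
Log2 fold change (MdMYB68 over empty vector, x axis, bars: standard error) of each calcium signalling contig (rows) from edgeR on total gene reads with library totals (black circles), on uniquely placed reads with library totals (green triangles) and on total gene reads with TMM factors of the listed contigs (purple diamonds). Ole e 8 and IQ-DOMAIN 14 have no green triangle because they had no uniquely placed read, and the purple diamonds of 4 contigs with black circles between 2.10 and 2.44 lie below 0.

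The IQ-domain contigs, the calmodulin targets of the group, went in opposite directions. Nbv5tr6279359, annotated as IQ-DOMAIN 14 with the symbol IQD13, a protein that shapes microtubule patterns of the xylem in Arabidopsis, had 2.12, 0.244, 0.958 and 0.968 RPKM in control leaves and 7.52, 7.71, 16.4 and 11.4 RPKM with MdMYB68. The mean was 10.0-fold higher (log2 fold change 3.37, SE 0.52, edgeR adjusted p = 9.4e-05; 0.42 with TMM factors), with spread within both groups and no uniquely placed read in any library.

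Nbv5tr6378616, annotated as IQ-DOMAIN 1 with the symbol IQD5, which in Arabidopsis lies on the microtubules of leaf epidermal cells, was the only calcium signalling contig that fell. The empty vector libraries had 77, 49, 48 and 100 reads (8.87, 5.19, 5.45 and 10.5 RPKM), whereas MdMYB68 replicate 1 had 7 reads (0.730 RPKM) and replicates 2 to 4 had none. The mean was 41.1-fold lower (log2 fold change -5.25, SE 0.76, edgeR adjusted p = 5.4e-05; -8.13 with TMM factors). Without MdMYB68 replicate 1 no read was left in the group, and against a floor of 3 reads the contig was at least 72.0-fold lower in the remaining 3 libraries. That bound leaves out the only MdMYB68 library with reads. With all libraries the ratio of summed reads per library total was 40.9-fold lower. Nearly all of its reads were shared with other contigs. Of the 274 empty vector reads 5 were uniquely placed, and of the 7 reads with MdMYB68 2 were, and on these few reads it was not called (log2 fold change -1.19, adjusted p = 0.38 from edgeR).

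Over the 14 contigs the share of uniquely placed reads ran from none to nearly all, with a median of 53.1% beside 77.4% over the listed contigs. It was above 95% for 4 contigs, namely the annexin, the primary calmodulin-like protein 3, At1g02270 and CIPK18, and under 20% for 5, namely calcineurin subunit B, the longer CPK30, Ole e 8 and both IQ-domain contigs. Of the 12 contigs with any uniquely placed read, edgeR on those reads alone called 11 (11 higher and 0 lower), beside 90.2% of the 2907 listed contigs with such reads (80.3% higher and 9.91% lower). At an unadjusted p under 0.05 it also found 11 higher and 0 lower. With the replicate number as a block, edgeR on total gene reads called 10 of the 14 (10 higher and 0 lower, with 13 and 1 at an unadjusted p under 0.05), beside 79.1% of the listed contigs (69.4% higher and 9.71% lower).

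**Figure D4:**
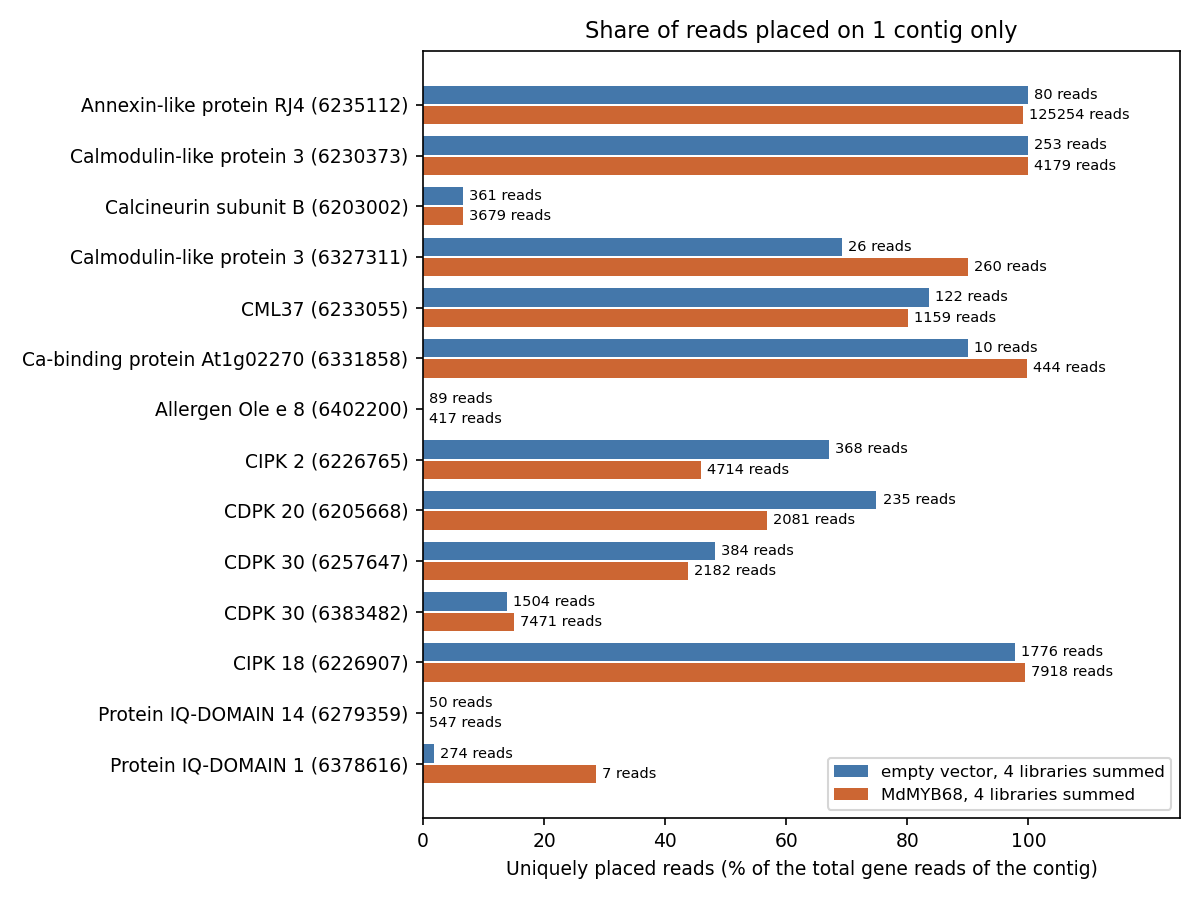
Uniquely placed reads as a percentage of the total gene reads (x axis) of each calcium signalling contig (rows), summed over the 4 empty vector libraries (blue) and the 4 MdMYB68 libraries (orange), with the total reads written at each bar. Ole e 8 and IQ-DOMAIN 14 have no bar, and for CIPK2 the share is 67.1% with the empty vector and 45.9% with MdMYB68.

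The reference set of a contig also bore on whether it was listed. All mapped reads exceeded the reads of the alternate set 5.90-fold and those of the primary set 1.20-fold in the median library, so that an alternate contig with the same reads and length has a higher RPKM. With all mapped reads as denominator, 9 of the 14 contigs still met the 4-fold and 5 RPKM cut-offs, beside 68.6% of the listed contigs. The 5 that did not were all alternate contigs, the alternate calmodulin-like protein 3, At1g02270, Ole e 8 and both IQ-domain contigs. RPKM from uniquely placed reads was computed with the reads of each contig's reference set as denominator again. On that scale 9 met the cut-offs (68.1% of the listed contigs), calcineurin subunit B, Ole e 8, CPK20 and both IQ-domain contigs falling out. The annexin, the primary calmodulin-like protein 3, CML37, CIPK2, CIPK18 and both CPK30 contigs met them under each change taken alone. The changes of denominator and of reads were not applied together.

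The empty vector libraries were the more variable ones. The coefficient of variation of RPKM was larger with the empty vector than with MdMYB68 for 13 of 14 contigs, with medians of 28.1% and 8.83%, the exception being IQ-DOMAIN 1, and the group with fewer reads was thus the more variable one in each contig. MdMYB68 replicate 3 held the highest RPKM of its group for 7 contigs and replicate 1 the lowest for 6, while in the control group replicate 4 was the highest for 6.

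Contigs of the same pathway that the rule left out gave a frame for the 14. The 9 contigs with a calcium annotation that named a channel or a serine/threonine-protein kinase were all higher. Of them 8 were called, beside 83.4% of all listed contigs called higher. Their median log2 fold change was 2.68. With TMM factors 4 were positive, beside 1912 of the 3305 listed contigs. Among them was Nbv5tr6244085, annotated as two-pore calcium channel 1B, a vacuolar channel, with an uncharacterized protein as second annotation. It had 0.812 ± 0.425 RPKM in control leaves and 21.7 ± 3.12 RPKM with MdMYB68 (SD, n = 4), from 24 and 657 reads. The mean was 26.8-fold higher (log2 fold change 4.69, SE 0.35, edgeR adjusted p = 3.2e-07, and 1.76 with TMM factors). Of its reads 99.4% were uniquely placed, but the control level rests on few reads. The 3 contigs with the symbol CRK1, a relative of the calcium-dependent protein kinases, had log2 fold changes from 2.68 to 4.09, with 2 of the 3 positive under TMM factors. Of 3 CIPK14 contigs 2 were called, and the third, Nbv5tr6351704, had no read in empty vector replicate 3 and 23.6 RPKM in replicate 1, and was not (log2 fold change 2.09, adjusted p = 0.035 from edgeR).

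Wide differences were also seen in respiratory burst oxidase homolog E, an NADPH oxidase of the plasma membrane whose family is activated through EF-hands and by calcium-dependent protein kinases. Its 6 contigs were all called higher, beside 83.4% of all listed contigs. Their log2 fold changes ran from 6.50 to 7.80, and from 3.55 to 4.90 with TMM factors. They summed to 588 reads with the empty vector and 71400 with MdMYB68, but between 0 and 35.7% of a contig's reads were uniquely placed, so the contigs cannot be counted as separate genes. Phosphoinositide phospholipase C, which releases inositol phosphates linked to calcium release, had 3 contigs with log2 fold changes from 2.08 to 2.77, 2 of them called, and none was positive with TMM factors. An extended synaptotagmin contig, Nbv5tr6202536, had no read with the empty vector and 4519 with MdMYB68, none of them uniquely placed.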

How the data were processed

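The authors trimmed the reads and, in CLC Genomics Workbench, mapped them to version 5 of the N. benthamiana transcriptome, whose contigs form a primary and an alternate set. The deposited table gives per contig and library 2 counts (total gene reads and uniquely placed reads), RPKM (total gene reads over contig length and over the reads mapped to that contig's reference set) and each group's mean RPKM. Its fold changes, p-values and FDR values of Baggerly's test were not used. The apple MdMYB68 transcript itself, genome coordinates and sequences were not analysed here. The number of per-sample columns not used is 0.

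Total gene reads of all 3305 contigs were tested with edgeR 4.0.16 (quasi-likelihood, R 4.3.3). Library size was the total mapped reads of the study's supplement, with normalization factors of 1 and no covariate. P-values were adjusted by Benjamini-Hochberg over every listed contig (threshold 0.001). Because these contigs had been selected on the same libraries, the adjusted p-values do not bound the share of false calls. A standard error is the size of the log2 fold change divided by the square root of F, and can be smaller than counting error where reads are few. Means and SDs are of the deposited RPKM unless another scale is named, and the permutation test used log2(RPKM + 1). The 3 reads of the floor cover counting error only. Alternatives used uniquely placed reads, TMM factors, DESeq2 1.42.0, limma 3.58.1, other library totals, a minimum of 10 reads, a replicate block, a 0.05 threshold and omission of single libraries. The edgeR, DESeq2 and limma steps with library totals were run on simulated data in which most contigs did not change, unlike in this list. TMM factors, the replicate block and uniquely placed reads were not part of that simulation. Values were computed in Python 3.11.15. The contigs and lists were chosen with earlier results of these data known. By the rule for named contigs, a group of 30 or fewer is named in full.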

Additional observations from a re-analysis of the deposited data

Results flagged for a closer look

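In 2 of 28 groups of 4 libraries (14 contigs, each with the empty vector and with MdMYB68) a single library stood apart, its gap to the nearest other library taking up more of the whole range of RPKM than Dixon's 95% critical value for 4 samples. For normally distributed values chance gives this for about 1 in 20 groups. For CPK20 (Nbv5tr6205668) MdMYB68 replicate 4 was the lowest, at 6.83 RPKM, with a gap of 0.904 of the range, and the other 3 libraries lay between 7.97 and 8.09 RPKM. For IQ-DOMAIN 1 (Nbv5tr6378616) MdMYB68 replicate 1 had 0.730 RPKM and the other 3 libraries were at 0. With 3 libraries tied at 0, any value above 0 in replicate 1 would have been flagged, so this flag is not informative.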

How the results depend on the processing

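The 13 increases and the fall of IQ-DOMAIN 1 kept their direction and their call in most settings (14 called, 13 higher and 1 lower, in each case). These were DESeq2 with fixed size factors, limma on the deposited RPKM with either pseudocount, and a minimum mean of 10 reads. They also included the reads of a contig's reference set as library size, library totals without the listed contigs, and omission of each library in turn. Of all listed contigs 3078 to 3158 were called without single libraries, and 3075 to 3244 under the other settings just named. TMM factors computed on the listed contigs moved the counts to 5 called, 2 higher and 3 lower, and to 1576 of all listed contigs, and reversed Ole e 8 (-0.79), the shorter and the longer CPK30 contig (-0.52 and -0.70) and CIPK18 (-0.86). With uniquely placed reads 0 of 12 tested contigs were called lower by edgeR, and 0 at an unadjusted p under 0.05 (IQ-DOMAIN 1 had an adjusted p of 0.38), while limma on RPKM and DESeq2 on total gene reads each called it. Same-numbered libraries of the 2 groups did not deviate together over the listed contigs (correlations from -0.04 to -0.01, and 0 libraries correlated best with their own number). The labels do not say whether replicates with the same number were paired, and so few libraries cannot settle it. With the replicate block edgeR called 10 contigs, 10 higher and 0 lower (1 lower at an unadjusted p under 0.05), and 2615 of the listed contigs. The 4 contigs that missed the threshold, At1g02270, Ole e 8 and both IQ-domain contigs, had adjusted p up to 0.0022, and IQ-DOMAIN 1 had 0.0016. Low reads limit At1g02270, whose log2 fold change ran from 4.93 to 6.21 without single libraries, and IQ-DOMAIN 1, where it ran from -9.13 to -4.84.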

Other observations

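In 5 contigs a keyword of the rule occurred only in the second annotation column. A pair of them, Nbv5tr6251768 and Nbv5tr6371358, carried the symbol IQD22 and were lower with MdMYB68, like the IQ-DOMAIN 1 contig. The first had 21.6, 44.6, 41.8 and 22.5 RPKM with the empty vector and 6.18, 0, 4.82 and 0 RPKM with MdMYB68, and was not called (log2 fold change -3.53, adjusted p = 0.0058 from edgeR). The second had 30.9, 29.6, 48.6 and 39.9 RPKM with the empty vector and 0, 1.35, 1.21 and 2.45 RPKM with MdMYB68, and was called (log2 fold change -4.83, adjusted p = 2.2e-05 from edgeR). Neither had a uniquely placed read in any library, so all 3 IQ-domain contigs that were lower rest nearly or wholly on reads shared with other contigs. A further pair, Nbv5tr6420792 and Nbv5tr6340922, was annotated AGD11 with a calcium-dependent lipid-binding hit and was higher, with log2 fold changes of 4.23 (adjusted p = 0.0011 from edgeR, not called) and 2.89 (adjusted p = 7.2e-06), or 1.31 and -0.05 with TMM factors. The last, Nbv5tr6403521, is annotated as SRK2E, the OST1 kinase of abscisic acid signalling, whose hit calls it calcium-independent. Its log2 fold change was 2.30 (adjusted p = 1.4e-05 from edgeR), and -0.66 with TMM factors.

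The ratio between the groups was not the same for shared and uniquely placed reads, and went either way. It was larger for shared reads in CIPK2 (20.2 against 8.39), CPK20 (14.6 against 6.44), CML37 (11.0 against 8.72), the shorter CPK30 contig (5.90 against 4.95) and, by little, calcineurin subunit B (9.76 against 9.74). It was smaller for shared reads in the longer CPK30 contig (4.70 against 5.14), the alternate calmodulin-like protein 3 contig (3.11 against 12.5, from 8 and 26 shared reads) and CIPK18 (0.982 against 4.34, from 39 and 40 shared reads). These differences were not tested. Which other contigs these reads also map to was not analysed here.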
